A study of Mus musculus with 4 samples.

Results

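Day 5 of culture was compared with day 1 in growth plate-like chondrocytes (GPLC), a wild-type mouse cell line. Per the submitters' labels, all cells grew at 37 °C and 5% CO2 in DMEM with 10% fetal bovine serum, penicillin and streptomycin, 50 ug/mL ascorbic acid and an insulin, transferrin and selenium supplement, so the days differ in time in culture and in nothing else the labels name. Total RNA came from cells described as sorted, with no description of the sort, and was sequenced after removal of ribosomal RNA. The comparison takes the 4 libraries of day 5 (numbered 1, 2, 3 and 4) and the 3 libraries of day 1 (numbered 1, 3 and 4), out of 15 libraries that also cover days 3 and 10, and it covers every gene of the table. The labels list 1 sample for each day and leave the library numbers unexplained. The p-values therefore speak only for differences among libraries, which could be technical repeats. Whether the line is a single clone is not given in the sources used here. Levels are given in CPM, read counts scaled to library size with the TMM correction. Of the 24499 genes in the table, 12109 passed the filter on low values, a mean of 1 CPM over the 4 day means.

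The growth plate is the cartilage disc in which long bones lengthen. Its chondrocytes pass from a resting and round state through a phase of columnar division into prehypertrophic and hypertrophic stages, while they build a matrix of collagen II fibrils and aggrecan around themselves. Hedgehog and PTHrP signals, FGF, BMP, Wnt, growth hormone, IGF and C-type natriuretic peptide set the pace of division and maturation. Chondrocytes kept in flat culture are also known to shift towards a fibroblast-like matrix.

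The libraries of days 5 and 1 held 13358241 to 17914972 reads assigned to genes, so that 1 read was worth 0.0563 to 0.0719 CPM. Library 2 of day 5 stood apart from the other day 5 libraries: it had 14145 genes above 0, against 15019 to 15277 in the others, and 270 genes with a single read, against 790 to 887. On the first principal component of these 7 libraries, which held 79.04% of the variance, the days were separated, with the 4 day 5 libraries between 36.6 and 44 and the 3 day 1 libraries between -55.6 and -51.9. The second component held 10.7% and set library 2 of day 5 at 36.9, with the other day 5 libraries between -18.1 and -2.58. Libraries 3 and 4 were the closest pair on both days, and even these pairs differed by more than counting error (chi-square divided by its degrees of freedom was 13.6 on day 5 and 5.71 on day 1).

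The cells carried chondrocyte genes on both days. Of 12 chondrocyte markers, 11 passed the filter and Snorc was not analysed here, and their summed level was 2971 to 8555 CPM in the day 5 libraries and 4728 to 5415 CPM in the day 1 libraries. All 8 osteoblast markers passed too. None of 8 endothelial, 6 epithelial and 4 erythroid markers reached the filter, and 1 of 12 macrophage and osteoclast markers did, Cd68, with Adgre1, C1qa, C1qb, Itgam and Dcstamp at 0 in all 7 libraries. Muscle, adipocyte and neural or glial markers passed for 2 of 8, 3 of 7 and 4 of 8 genes. Of 8 tendon and fibroblast markers 5 were tested and 4 rose, against 25.2% of all genes tested, among them the PDGF receptor gene Pdgfra (1.79 ± 0.14 on the log2 scale, adjusted p = 2.5e-07 by limma). The tendon transcription factor Scx was not called but was lower in every day 5 library than in any day 1 library. It averaged 11.7 CPM on day 5 and 17.0 CPM on day 1 (-0.54 ± 0.24, adjusted p = 0.081 by limma). In a fit with the library number as a block, 4 of the 5 were called higher and 1 lower. The summed level of the 8 markers was 536 to 591 CPM on day 5, against 236 to 285 CPM on day 1. In RNA from whole samples, fewer cells of a type and less RNA per cell cannot be told apart.

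The transcriptome of day 5 differed widely from that of day 1. By limma, with all 15 libraries in 1 fit on log2(CPM + 1) and Benjamini-Hochberg adjustment at 0.05, 3052 genes were higher on day 5 (25.2% of those tested) and 2998 were lower (24.8%). The differences were mostly modest: 4052 of the called genes differed by less than 2-fold, and the median log2 difference was 0.87 among genes called higher and -0.69 among genes called lower. Differences of at least 2-fold were more often increases, with 1268 genes higher (10.5%) and 774 lower (6.39%), of which 1232 and 766 were also called. Past 4-fold, 317 called genes were higher and 121 lower, and past 16-fold 33 were higher and 2 lower. Because the filter used the means of all 4 days, genes barely measured on day 1 could pass through the later days. The excess of large increases may partly follow from this, which was not tested. For 3638 genes (30.0%) every day 5 library lay above every day 1 library, and for 3647 (30.1%) every one lay below. The median log2 difference of all genes tested was 0.01. Counts of gene lists below are to be read beside the 25.2% higher and 24.8% lower of all genes tested. Without library 2 of day 5, 2982 genes were called higher and 2929 lower.

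**Figure D1:**
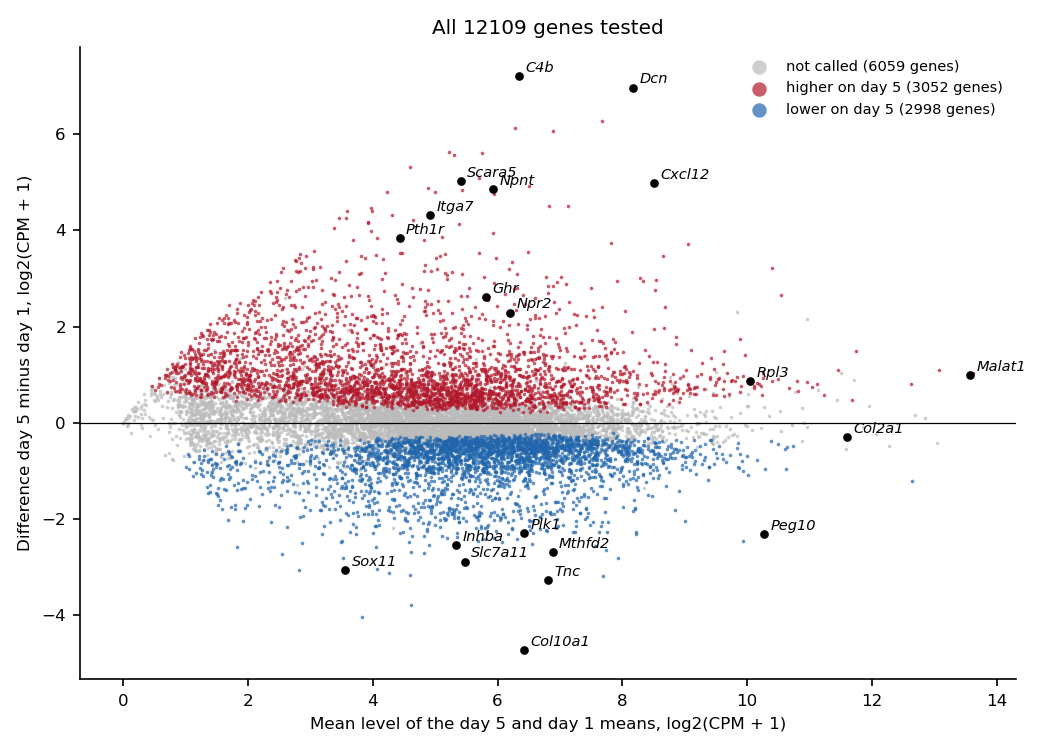
Each point is 1 of the 12109 genes tested, with the mean of the day 5 and day 1 levels on the horizontal axis and the difference day 5 minus day 1 on the vertical axis, both on the log2(CPM + 1) scale; red points were called higher on day 5 (3052 genes), blue points lower (2998 genes) and grey points neither, and the black points are the genes named beside them. The upper side of the cloud reaches farther, up to 7.21 for C4b, while the lowest gene, Col10a1, lies at -4.73. Genes barely measured on day 1, such as C4b, passed the filter through later days.

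The genes with the highest differences encode mostly secreted proteins and receptors, and several were barely measured on day 1. Fold changes here are differences of log2(CPM + 1), which understate the change of genes near 0, and ± is the standard error from limma. Values by library are given in the order of the library numbers, 1 to 4 on day 5 and 1, 3 and 4 on day 1. Cxcl12 (chr6:117168535-117181367 in GENCODE M21 on GRCm38), a chemokine that holds progenitor and blood-forming cells in place, reached 374, 857, 766 and 819.7 CPM on day 5, against 24.9, 18.7 and 18 CPM on day 1 (log2 difference 4.98 ± 0.36, adjusted p = 1.8e-07), with library 1 the lowest of day 5 and no overlap between days. Scara5, a scavenger receptor that takes up ferritin, had 34.5, 58.5, 112 and 123 CPM on day 5, against 1.22, 1.15 and 1.42 CPM on day 1 (5.03 ± 0.46, adjusted p = 1.0e-06). Here libraries 3 and 4 of day 5 were well above libraries 1 and 2, and all 4 were above day 1.

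The same end of the distribution held adhesion and matrix proteins and acute-phase genes. Itgbl1, a secreted protein with integrin-like repeats, averaged 105 ± 20.5 CPM on day 5 and 1.35 ± 1.23 CPM on day 1 (SD, n = 4 and 3 libraries, log2 difference 5.60 ± 0.35). Npnt, nephronectin, a matrix ligand of integrins, averaged 117 ± 18.3 and 3.22 ± 1.39 CPM on days 5 and 1 (4.85 ± 0.28). Lbp, which binds bacterial lipopolysaccharide, stood at 56.2, 112, 65.1 and 72.6 CPM on day 5, against 1.28, 0.216 and 0.433 CPM on day 1 (5.56 ± 0.43, adjusted p = 2.5e-07), and library 2 was the highest of day 5. Ggt5, a gamma-glutamyltransferase that processes glutathione conjugates and leukotrienes, and Dapk1, a kinase that promotes cell death, rose by 5.1 ± 0.45 and 4.87 ± 0.43 on the log2 scale. Hp, haptoglobin, which binds free haemoglobin, had 23.4, 94.4, 30.8 and 37 CPM on day 5, while day 1 held a single read in 1 of its 3 libraries. Dcn, Lum, Gpnmb and Mgp completed this group with log2 differences of 6.96, 6.27, 6.13 and 6.06.

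The lowest differences belonged to genes of the hypertrophic matrix, of remodelling tissue and of progenitor states. Col10a1, the collagen of hypertrophic cartilage, stood at 5.80, 6.63, 2.74 and 5.51 CPM on day 5, against 100.2, 203 and 189 CPM on day 1 (-4.73 ± 0.58, adjusted p = 1.4e-05). Sox11, a transcription factor of embryonic progenitors, had 0.901, 1.27, 2.13 and 1.74 CPM on day 5, against 13.8, 20.7 and 25.9 CPM on day 1 (-3.06 ± 0.41, adjusted p = 2.9e-05). Every day 5 library lay below every day 1 library for both genes. Ptx3, a secreted pentraxin of innate defence, fell to 64.3 ± 30.4 CPM on day 5, against 424 ± 13 CPM on day 1 (SD, n = 4 and 3 libraries, -2.80 ± 0.35), and Ptgs2, the inducible enzyme of prostaglandin synthesis, fell to 3.85 ± 0.983 CPM, against 42.7 ± 11.4 CPM on day 1 (-3.16 ± 0.37). Myb, a transcription factor of dividing progenitors, changed by -2.71 ± 0.31, Pkp1, a desmosome protein, by -3.06 ± 0.29, Plekhg4, a predicted exchange factor for small GTPases, by -3.12 ± 0.30, and Fhdc1, a formin, by -2.80 ± 0.23. Cyp26b1, which breaks down retinoic acid, had 8.33, 1.96, 1.52 and 1.08 CPM on day 5, against 18.8, 34.8 and 31.1 CPM on day 1 (-3.03 ± 0.41, adjusted p = 3.4e-05). Library 1 of day 5 was the highest for Cyp26b1, and without the libraries numbered 1 the difference was -3.76.

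Of the 7 cartilage fibril collagens tested, 2 rose and 1 fell (0 fell without library 1 or 3 of day 1), shares near the 25.2% higher and 24.8% lower of all genes tested, with a median log2 difference of -0.07 beside 0.01 for all genes tested. Col2a1, the main fibril collagen, had 5142, 1796, 2184 and 2512 CPM on day 5 and 3393, 3471 and 3024 CPM on day 1 (-0.30 ± 0.61, adjusted p = 0.71). Library 1 of day 5 was above and the other day 5 libraries below all of day 1, so the days overlapped. Col11a2, a chain of the thin collagen XI fibrils, rose to 318, 125, 90.4 and 116 CPM on day 5, against 29.97, 32.1 and 26.3 CPM on day 1 (2.25 ± 0.52, adjusted p = 0.0023), again with library 1 the highest of day 5 and no overlap. Col9a1, of the collagen IX on the fibril surface, gave -0.14 ± 0.40 (adjusted p = 0.79). Of the 6 chains of collagens I, III and V, 1 rose, Col3a1 (1.49 ± 0.27, adjusted p = 0.00040), and 2 rose without library 1 of day 5. Col1a1, which bone and scar tissue make in bulk, gave -0.42 ± 0.54 (adjusted p = 0.54) and overlapped between days.

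Small leucine-rich proteoglycans coat collagen fibrils and limit their width. Of 13 tested, 7 rose and 1 fell, against 25.2% higher and 24.8% lower among all genes tested. Their median was 1.12, and 0 fell without library 4 of day 5. Beside Dcn and Lum, Ecm2 rose to 67.2, 61.5, 49 and 54.5 CPM on day 5, against 6.03, 3.96 and 3.65 CPM on day 1 (3.43 ± 0.32, adjusted p = 1.1e-06), and Bgn, biglycan, to 2627 ± 145 CPM, against 1567 ± 62.3 CPM on day 1 (SD, n = 4 and 3 libraries, 0.74 ± 0.15). Epyc, epiphycan, a proteoglycan of the growth plate, had 7.88, 14.4, 1.71 and 1.74 CPM on day 5, against 0.366, 0.0720 and 0.186 CPM on day 1 (2.23 ± 0.65, adjusted p = 0.0099). Libraries 1 and 2 of day 5 carried most of it, and its adjusted p was 0.074 without the libraries numbered 1.

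In the list of matrilins, COMP, thrombospondins and other cartilage proteins, several of which link fibrils to the rest of the matrix, 8 of 13 tested members rose and 1 fell (2 fell without library 1 or 2 of day 5, and 3 in a fit with the library number as a block), with a median log2 difference of 1.4. The summed level of the list, most of it from Thbs1, was lower on day 5, at 4109 to 5600 CPM on day 5, against 8384 to 9707 CPM on day 1. Matn1, matrilin-1, a cartilage adaptor, had 88, 15.8, 67.4 and 73.6 CPM on day 5, against 1.16, 0.791 and 0.742 CPM on day 1 (4.80 ± 0.79, adjusted p = 0.00016). Library 2 was the lowest of day 5 and still above all of day 1. Matn4 followed with 59.2, 39.1, 51.1 and 57 CPM on day 5, against 3.41, 2.66 and 2.16 CPM on day 1 (3.81 ± 0.35), and Comp, which is mutated in pseudoachondroplasia, with 107, 136, 47.1 and 47 CPM, against 10.23, 16 and 14.7 CPM on day 1 (2.41 ± 0.40), libraries 1 and 2 being the higher ones of day 5. Clu, clusterin, a secreted chaperone of superficial cartilage, rose by 3.73 ± 0.33 on the log2 scale. Thbs1, thrombospondin-1, which activates latent TGF-beta, was the member that fell, to 3272, 4514, 3543 and 4182 CPM on day 5, against 9493, 8918 and 8186 CPM on day 1 (-1.20 ± 0.33, adjusted p = 0.0071). The adjusted p of Thbs1 was 0.081 without the libraries numbered 3.

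Elastic microfibrils are the threads of fibrillin that store latent TGF-beta. Of 15 of their genes tested 7 rose and 3 fell, against 25.2% higher and 24.8% lower among all genes tested. Fibrillin-1 (Fbn1), mutated in Marfan syndrome, rose to 395, 349, 367 and 285 CPM on day 5, against 184, 111 and 99.2 CPM on day 1 (1.45 ± 0.25), and Fbln1 rose to 207, 349, 314 and 362 CPM, against 55.2, 61.9 and 57.5 CPM on day 1 (2.35 ± 0.33). Its relative Fbln2 fell to 26.2, 58.5, 22.4 and 25.9 CPM on day 5, against 151, 159.9 and 131 CPM on day 1 (-2.22 ± 0.33, adjusted p = 6.7e-05). Fbln1 and Fbln2 moved in opposite directions with no overlap between days for either gene. The latent TGF-beta binding proteins Ltbp1 and Ltbp2 fell as well, Ltbp1 with a log2 difference of -3.18 ± 0.29 and Ltbp2 to 1.46, 5.36, 5.12 and 4.01 CPM on day 5, against 14.7, 27.5 and 19.7 CPM on day 1 (-2.16 ± 0.37). Among the tenascins, Tnxb, of elastic connective tissue, rose by 2.29 ± 0.28, whereas Tnc and Tnn, of wounds and developing bone, gave -3.26 and -4.03.

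Genes for cutting the matrix and genes for restraining the cut were both more often higher. Of 22 matrix proteases, 13 rose and 1 fell, with a median of 1.01, and of 10 protease inhibitors 6 rose and 1 fell, with a median of 0.78. Among all genes tested 25.2% were higher and 24.8% lower. Mmp2, gelatinase A, stood at 1060.3, 1222, 1133 and 1266 CPM on day 5, against 408, 436 and 395 CPM on day 1 (1.5 ± 0.14, adjusted p = 1.6e-06), and Htra1, a secreted serine protease, at 32.3, 25.9, 37.8 and 43.6 CPM, against 4.45, 4.96 and 5.50 CPM on day 1 (2.57 ± 0.22). Plat, tissue plasminogen activator, rose by 2.56 ± 0.23. Adamts20 was the protease that fell, to 0.676, 0.461, 0.488 and 0.3 CPM on day 5, against 6.09, 3.96 and 5.38 CPM on day 1 (-2.04 ± 0.20). On the other side, Timp2, an inhibitor and cofactor of Mmp2 activation, had 841, 975, 794 and 889 CPM on day 5, against 347, 376 and 377 CPM on day 1 (1.25 ± 0.19), and Reck, a membrane inhibitor of metalloproteases, 54.2, 68.6, 77.7 and 85.6 CPM, against 14.3, 12 and 12.2 CPM on day 1 (2.37 ± 0.18). Both inhibitors were higher in every day 5 library than in any day 1 library.

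Genes that build proteoglycans were not lower as a group, although some of the best known members were. Of 27 genes of glycosaminoglycan synthesis 8 fell, a share near the 24.8% of all genes tested, and 4 rose (2 rose without library 1 of day 1). Slc26a2, the sulfate transporter mutated in diastrophic dysplasia, fell to 30.5, 16.8, 15.9 and 16.5 CPM on day 5, against 68.4, 51 and 47.5 CPM on day 1 (-1.47 ± 0.20, adjusted p = 3.1e-05). Papss2, which makes the activated sulfate for chondroitin, and Hs6st2, a heparan sulfate sulfotransferase, fell as well, with log2 differences of -1.29 ± 0.31 and -1.41 ± 0.19. Acan, the aggrecan core protein, had 296, 61.2, 126 and 112 CPM on day 5, against 426, 479 and 408 CPM on day 1 (-1.78 ± 0.55, adjusted p = 0.015), and its adjusted p was 0.11 without the libraries numbered 3 and 0.057 without those numbered 4. Hyaluronan turnover genes moved in both directions: Hyal1, a lysosomal hyaluronidase, rose to 17.6, 8.24, 17.5 and 17 CPM on day 5, against 2.13, 1.37 and 1.73 CPM on day 1 (2.50 ± 0.25), and Tmem2, a cell-surface hyaluronidase, fell to 67.1, 70.6, 68.8 and 66.3 CPM, against 152, 170.2 and 167 CPM on day 1 (-1.24 ± 0.10). About 50.8% of the exon bases of Hyal1 are shared with its neighbour Naa80 on the same strand, so reads of these genes may be mixed. Of 23 genes of collagen modification and processing 8 rose, 2 fell and 13 were not called, with a median log2 difference of 0.25. Among all genes tested 25.2% were higher and 24.8% lower. In the fit with the library number as a block or without library 2 of day 5, 4 fell. Without library 1 or 3 of day 5 or library 3 or 4 of day 1, 1 fell. Among them Lox, a lysyl oxidase that crosslinks collagen, rose by 1.1 ± 0.21 and Plod2, a lysyl hydroxylase, by 1.38 ± 0.21.

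**Figure D2:**
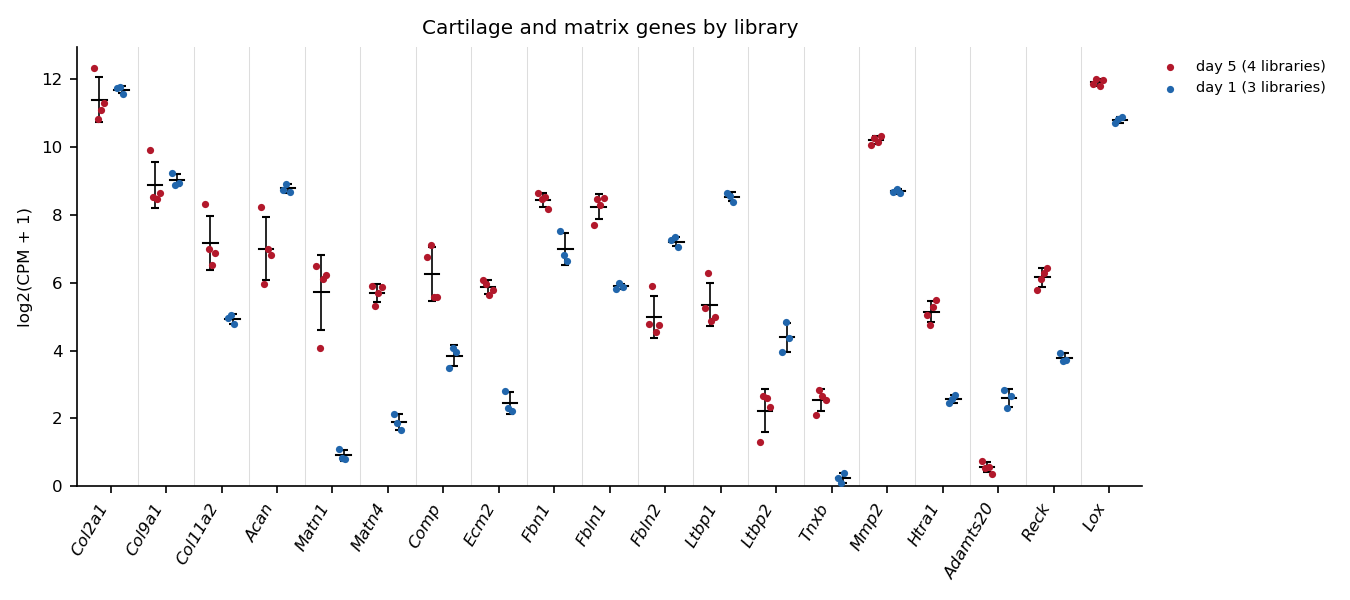
Levels of 19 cartilage and matrix genes, log2(CPM + 1), with 1 point per library, the 4 day 5 libraries in red to the left of the 3 day 1 libraries in blue, and bars for the mean and SD. For Col2a1 and Col9a1 the days overlap, and for the other 17 genes they do not.

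Regulators of chondrocyte identity and of maturation did not move as 1 block. Of 16 chondrogenic regulators 5 rose and 6 fell, against 25.2% higher and 24.8% lower among all genes tested (2 rose without library 4 of day 1 or library 1 of day 5, and 3 without library 3 of either day). Sox9, the master regulator of cartilage, had 233, 111, 151 and 155 CPM on day 5, against 411, 348 and 377 CPM on day 1 (-1.26 ± 0.38, adjusted p = 0.013), with an adjusted p of 0.070 without the libraries numbered 3. Its partner Sox6 fell as well (-1.41 ± 0.24, adjusted p = 0.00025 by limma). Sox5, the other partner, was called higher (0.62 ± 0.24, adjusted p = 0.044 by limma), with overlap between days. Foxc1, a forkhead factor of skeletal development, rose to 208, 223, 182 and 200.02 CPM on day 5, against 111, 79.9 and 91.2 CPM on day 1 (1.11 ± 0.13).

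Of 27 prehypertrophic and hypertrophic genes, 11 rose and 4 fell, with a median of 0.42. Pth1r, the receptor of PTHrP and parathyroid hormone that marks prehypertrophic cells, rose to 54.8, 50.2, 25.9 and 26.9 CPM on day 5, against 1.83, 1.94 and 1.299 CPM on day 1 (3.84 ± 0.53, adjusted p = 3.7e-05). Libraries 1 and 2 carried about the same level and libraries 3 and 4 a lower one, all above day 1. Enpp1, which makes the mineralization inhibitor pyrophosphate, had 188, 178, 201 and 203 CPM on day 5, against 46.9, 22.4 and 22 CPM on day 1 (2.71 ± 0.25). Spp1, osteopontin, rose by 1.27 ± 0.32 and Dmp1, a mineral-binding protein of osteocytes with 0 to 6 reads in each day 1 library, by 3.31 ± 0.52. The genes that fell included Col10a1 and Dlx5, a homeobox factor of bone formation, at 21.4, 17.8, 11 and 8.81 CPM on day 5, against 33.8, 32 and 35.8 CPM on day 1 (-1.22 ± 0.26).

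Receptors and feedback genes of the growth hormone axis were higher on day 5. Growth hormone acts through its receptor and STAT5, which turns on Socs2 as a brake, and Irs1 carries the insulin and IGF signal. Of 16 genes of the axis 12 rose and 1 fell, with a median of 0.84, and 0 fell without library 3 or 4 of day 1 or library 1 or 2 of day 5. Ghr, the receptor, stood at 106, 80.3, 101 and 95.6 CPM on day 5, against 18, 13.5 and 13.1 CPM on day 1 (2.62 ± 0.18, adjusted p = 1.1e-07). Socs2 had 42.2, 19.9, 30.4 and 30.8 CPM on day 5, against 3.29, 3.89 and 3.71 CPM on day 1 (2.74 ± 0.18, adjusted p = 1.1e-07), and Irs1 308, 240.2, 292 and 282 CPM, against 63, 56.3 and 58.1 CPM on day 1 (2.22 ± 0.19). In all 3 genes each day 5 library lay above each day 1 library. Igfals, which stabilizes IGF in serum, had 15.4, 7.72, 7.44 and 6.89 CPM on day 5, against 0.0609, 0 and 0.371 CPM on day 1 (3.12 ± 0.42), with library 1 the highest.

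C-type natriuretic peptide promotes bone growth through the receptor Npr2 and cyclic GMP. Of the 5 genes of this pathway tested, 3 rose and 0 fell. Npr2 had 96.4, 118, 126 and 146 CPM on day 5, against 22.7, 24.8 and 24.1 CPM on day 1 (2.29 ± 0.22, adjusted p = 1.5e-06), and Pde5a, which breaks down cyclic GMP, 77.2, 90.5, 103 and 109 CPM, against 11.4, 5.54 and 6.0 CPM on day 1 (3.52 ± 0.44). The receptor and the enzyme that ends its signal were both higher in every day 5 library.

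FGF receptors changed in opposite directions. Fgfr3, whose activating mutations cause achondroplasia, fell to 88.5, 56.1, 64.1 and 73 CPM on day 5, against 174, 272 and 256 CPM on day 1 (-1.71 ± 0.23, adjusted p = 3.4e-05), whereas Fgfr1 rose to 205, 219, 243 and 292 CPM, against 108, 116 and 106 CPM on day 1 (1.11 ± 0.18, adjusted p = 0.00016). Some feedback genes that ERK signalling turns on rose, and those given here were among the highest of the FGF and ERK list. Etv5 rose to 11.7, 24.7, 19.3 and 27.3 CPM on day 5, against 1.22, 0.720 and 1.18 CPM on day 1 (3.36 ± 0.27), Spry1 by 2.36 ± 0.30 and Dusp6 by 1.90 ± 0.32. Phlda1, Dusp5 and Spred1 were, with Fgfr3, the lowest members of the same list. In the whole list of FGF and ERK genes 8 of 15 rose and 2 fell (1 fell without any 1 library). Immediate-early genes, which answer growth factors within minutes, followed with 16 of 23 higher and 1 lower and a median of 1.19. Egr1 had 125, 279, 137 and 159 CPM on day 5, against 7.80, 3.24 and 3.53 CPM on day 1 (4.92 ± 0.42, adjusted p = 5.9e-07). Fos had 10.9, 149, 14.8 and 15.7 CPM on day 5, against 0.426, 0.288 and 0.557 CPM on day 1 (4.20 ± 1.07, adjusted p = 0.0044); its level in library 2 was far above the others, and without that library the difference was 3.36 with an adjusted p of 0.013. Fosl1, the other Fos family gene named here, fell to 2.70, 5.53, 1.16 and 1.80 CPM, against 17.1, 19.1 and 17.9 CPM on day 1 (-2.45 ± 0.37), but 57.2% of its exon bases overlap Ccdc85b on the opposite strand. The list median by library was 0.86, 1.89, 0.89 and 1.1 in the 4 day 5 libraries, and 12 members were called higher without library 2.

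Of 18 Wnt ligands and canonical targets 7 rose and 2 fell, and of 7 secreted antagonists 3 rose and 1 fell. Among all genes tested 25.2% were higher and 24.8% lower. Whether these small lists differ from those shares was not tested. Wnt16, a ligand of articular cartilage and cortical bone, had 60.3, 196, 102 and 112 CPM on day 5, against 3.90, 2.59 and 2.78 CPM on day 1 (4.75 ± 0.39, adjusted p = 5.0e-07), whereas Wnt10b, a ligand that favours bone formation, had 15, 9.22, 7.68 and 9.35 CPM, against 26.7, 66.6 and 49.7 CPM on day 1 (-2.05 ± 0.34, adjusted p = 0.00017). The receptors of R-spondin also differed in direction. Lgr5 rose to 149.8, 125, 132 and 137 CPM on day 5, against 12.2, 11.8 and 13.2 CPM on day 1 (3.35 ± 0.35), and Lgr4 fell to 59.5, 52.7, 60.5 and 55.5 CPM, against 138, 209 and 205 CPM on day 1 (-1.65 ± 0.13). None of these 4 genes overlapped between days. The ligand Rspo2 rose by 1.92 ± 0.35. Sfrp4, an antagonist that binds Wnt proteins, had 32.7, 18, 17.4 and 19.8 CPM on day 5, with 0 to 2 reads in each day 1 library (4.39 ± 0.46).

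Hedgehog co-receptors rose: Boc to 276, 265, 344 and 369 CPM on day 5, against 107, 108 and 99.9 CPM on day 1 (1.56 ± 0.17, adjusted p = 4.6e-06), and Cdon by 1.19 ± 0.18. The pathway list, which includes PTHrP, had 7 of 15 members higher and 2 lower, against 25.2% higher and 24.8% lower among all genes tested. Only 1 was lower without library 1 or 3 of day 1 or library 3 of day 5. Pthlh, the PTHrP gene itself, fell to 0.788, 0.403, 1.28 and 1.02 CPM on day 5, against 2.01, 2.45 and 2.29 CPM on day 1 (-0.81 ± 0.21, adjusted p = 0.0045 by limma). Of 14 BMP ligands, receptors and targets 0 rose and 3 fell, a share near the 24.8% of all genes. Id1, a target of BMP signalling, had 79.4, 117, 62.4 and 57.9 CPM on day 5, against 184, 201 and 182 CPM on day 1 (-1.3 ± 0.40, adjusted p = 0.014), with adjusted p values of 0.084 and 0.12 without the libraries numbered 1 and 3. Of 14 BMP antagonists 5 rose, against 25.2% of all genes tested, and 0 fell. The number that rose was 3 without library 1 or 3 of day 1 and 2 without library 4 of day 1. The largest difference among them was that of Nbl1, at 34.3, 104, 52.9 and 62.7 CPM on day 5, against 1.95, 4.10 and 3.59 CPM on day 1 (3.87 ± 0.35, adjusted p = 1.0e-06).

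In the TGF-beta family 9 of 16 members were higher and 5 lower. Tgfbr3, betaglycan, a co-receptor, rose to 124, 167, 117 and 124 CPM on day 5, against 27.5, 14.9 and 15 CPM on day 1 (2.78 ± 0.21, adjusted p = 2.5e-07), and Lrrc32, which holds latent TGF-beta at the cell surface, by 2.28 ± 0.49. Inhba, an activin subunit, fell to 13.2, 11.9, 10.00 and 8.69 CPM on day 5, against 56.4, 77.2 and 70.9 CPM on day 1 (-2.54 ± 0.29, adjusted p = 7.6e-06). Skil, which represses SMAD target genes, fell too (-1.46 ± 0.13). Targets of YAP and TEAD, factors that respond to cell spreading, were divided, with 6 of 20 higher and 5 lower, shares near those of all genes. Ctgf had 60.6, 213, 255 and 359 CPM on day 5, against 17.8, 28.9 and 25 CPM on day 1 (2.93 ± 0.57, adjusted p = 0.00065), while Ankrd1 had 2.82, 5.99, 3.41 and 3.296 CPM, against 23.8, 29.3 and 28.7 CPM on day 1 (-2.57 ± 0.22, adjusted p = 7.4e-07). Of 21 contractile actin genes 7 fell and 1 rose (4 fell without library 4 of day 1, and 2 rose without library 1 of either day). Among all genes tested 24.8% were lower and 25.2% higher. Actn1, an actin crosslinker of stress fibres, fell (-1.02 ± 0.16), and the myosin light chain kinase gene Mylk rose to 358, 358, 329 and 319 CPM on day 5, against 83.5, 54.6 and 55.2 CPM on day 1 (2.41 ± 0.24).

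**Figure D3:**
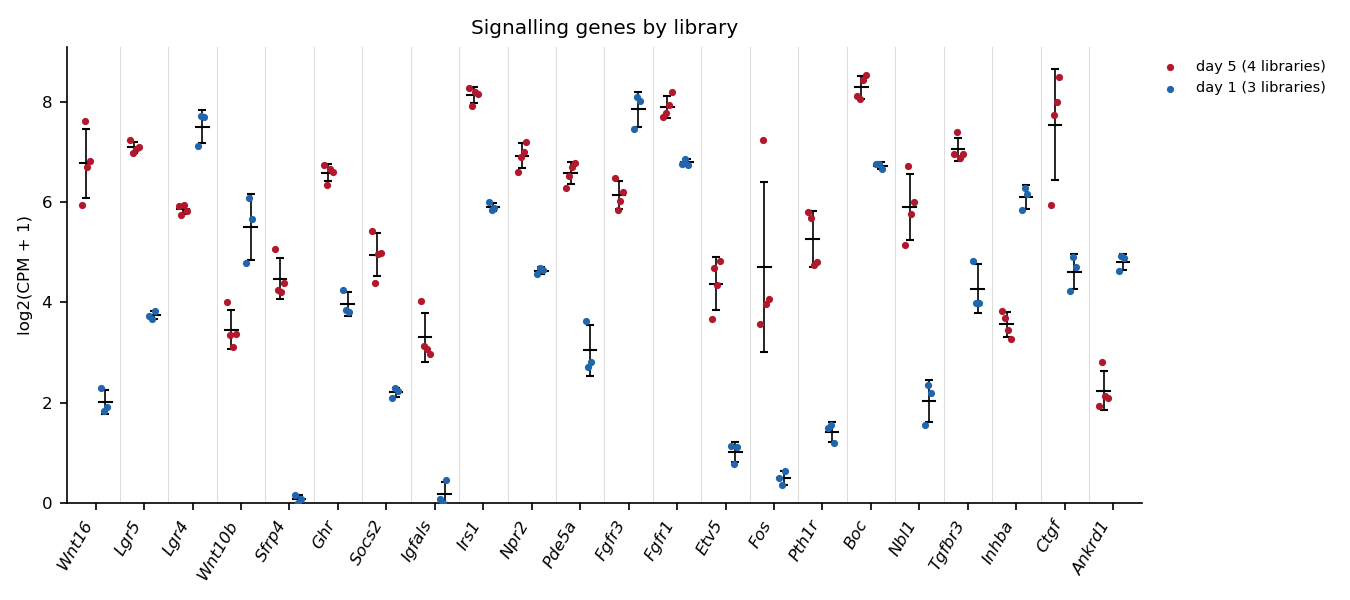
Levels of 22 signalling genes, log2(CPM + 1), with 1 point per library, the 4 day 5 libraries in red to the left of the 3 day 1 libraries in blue, and bars for the mean and SD. The days do not overlap for any of these genes, and the single day 5 library far above the others for Fos is library 2, at 149 CPM.

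Genes of the dividing cell were lower on day 5 without exception in the S phase and the G2 and M phase lists. The S phase list (30 of 30 genes lower) had a median of -1.14 and the G2 and M phase list (30 of 30 lower) a median of -2.03. Plk1, a kinase that drives mitosis, fell to 36.4, 21.1, 28.2 and 29.3 CPM on day 5, against 152, 135 and 138 CPM on day 1 (-2.29 ± 0.21, adjusted p = 1.1e-06), and Cdc20, which switches on the anaphase-promoting complex, to 81.9, 52.4, 63.8 and 68.7 CPM, against 296, 284 and 291 CPM on day 1 (-2.12 ± 0.27). Among S phase genes, Rrm2, a ribonucleotide reductase subunit, fell to 59, 56.4, 52.3 and 47.9 CPM on day 5, against 329, 311 and 326 CPM on day 1 (-2.56 ± 0.19), and Mcm5, part of the replicative helicase, to 87.9, 65.6, 64.1 and 64.5 CPM, against 288, 266 and 267 CPM on day 1 (-1.95 ± 0.19). Library 2 had the lowest median of the G2 and M phase list on day 5, -2.59, and the other day 5 libraries stood between -1.98 and -1.73. The factors above these genes fell too, 13 of 14, with Mybl2 at -2.35 ± 0.22 and Foxm1 at -1.90 ± 0.20. Of 25 replication-dependent histone genes 24 fell, with a median of -1.68. These messages lack a poly(A) tail, which libraries made by removal of ribosomal RNA do not need. Hist1h1b fell to 133, 95, 94.8 and 78.8 CPM on day 5, against 557, 452 and 467 CPM on day 1 (-2.30 ± 0.30). The histone gene that was not called, Hist1h1c, gave -0.36 ± 0.20 (adjusted p = 0.14), and -0.50 with an adjusted p of 0.0014 with the library number as a block and 0.038 without library 2 of day 5.

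The promoters of 2 of these mitotic genes are shown for a pair of elements known to time the transcription of such genes in the cell cycle. The sequences are from RefSeq (GRCm38.p6), from 250 bases before to 50 bases after the transcription start, read 5′ to 3′ along the gene, Plk1 at chr7:122159185-122159484 on the plus strand and Cdc20 at chr4:118437294-118437593 on the minus strand. Capitals mark the cell-cycle genes homology region (CHR), TTTGAA, and the CCAAT box, CCAAT, searched on both strands.
Plk1: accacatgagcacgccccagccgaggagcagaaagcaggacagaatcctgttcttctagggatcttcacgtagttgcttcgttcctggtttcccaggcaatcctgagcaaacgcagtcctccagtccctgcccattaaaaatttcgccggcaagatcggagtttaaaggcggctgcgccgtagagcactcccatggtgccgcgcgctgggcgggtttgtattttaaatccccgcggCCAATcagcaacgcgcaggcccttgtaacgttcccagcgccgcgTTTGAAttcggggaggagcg
Cdc20: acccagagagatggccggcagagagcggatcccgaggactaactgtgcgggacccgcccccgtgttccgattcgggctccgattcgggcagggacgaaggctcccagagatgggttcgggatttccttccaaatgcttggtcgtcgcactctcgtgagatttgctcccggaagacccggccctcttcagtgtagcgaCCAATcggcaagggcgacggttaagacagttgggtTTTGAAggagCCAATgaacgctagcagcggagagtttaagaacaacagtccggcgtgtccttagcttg
TTTGAA was present in 20 of 26 promoters matched to the G2 and M phase list (76.9%) and in 3 of 27 matched to the S phase list (11.1%), against 11.6% of 11874 promoters of genes tested and 17.9% of all 32851 promoters. CCAAT was present in 88.5% and 66.7% of the same promoters of the lists, against 38.0% of promoters of genes tested and 37.4% of all promoters. These are counts of letters in a window and not of bound sites.

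Of 14 CDK inhibitors, D cyclins with their kinases, and pocket proteins, a list that holds both brakes and drivers of the cell cycle, 8 fell and 2 rose. Cdkn1b, p27, rose modestly to 188, 180.4, 185 and 189.5 CPM on day 5, against 129, 108 and 126 CPM on day 1 (0.62 ± 0.11, adjusted p = 0.00041), while Ccnd2, cyclin D2, fell (-1.65 ± 0.22). Cdkn1a, p21, a brake that p53 turns on, had 11.8, 16, 17.3 and 19.2 CPM on day 5, against 37.3, 55.2 and 52.1 CPM on day 1 (-1.53 ± 0.45, adjusted p = 0.011), with adjusted p values of 0.061 to 0.070 when the libraries numbered 1, 3 or 4 were left out. Of 24 p53 target genes 17 fell and 5 rose, with a median of -0.88. Gtse1, a mitotic antagonist of p53, fell to 17.7, 11.1, 16.1 and 15.4 CPM on day 5, against 93.4, 84.5 and 81.7 CPM on day 1 (-2.46 ± 0.19), as did Ccng1 (-1.22 ± 0.12) and Mdm2, the ligase that degrades p53 (-0.88 ± 0.13). Trp53inp1, a target that promotes autophagy, rose by 1.12 ± 0.25. In the polycomb complex, which silences developmental genes, the catalytic subunits moved apart: Ezh2, of dividing cells, fell to 54.2, 37.9, 54.1 and 56.1 CPM on day 5, against 81.6, 88.4 and 96.6 CPM on day 1 (-0.81 ± 0.18), and Ezh1, of resting cells, rose to 82.1, 79.8, 97.8 and 101 CPM, against 27.5, 31.4 and 28.8 CPM on day 1 (1.59 ± 0.13). Neither gene overlapped between days.

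Genes that supply amino acids and load them onto tRNA fell. The transcription factor ATF4 turns on many of them when amino acids run short or secretory load is high. The list of serine and one-carbon metabolism also holds ATF4 targets from outside that metabolism, such as Trib3 and Ddit3. Of 25 genes of serine and one-carbon metabolism 16 fell and 1 rose (2 rose without library 1 of day 5), with a median of -1.07, and of 20 aminoacyl-tRNA synthetase genes 16 fell and 1 rose, with a median of -0.82 and 0 rose without library 3 or 4 of day 1 or library 1 or 2 of day 5. Psat1, of serine synthesis, fell to 82, 78.6, 87.7 and 74.4 CPM on day 5, against 225, 402 and 428 CPM on day 1 (-2.06 ± 0.27, adjusted p = 2.1e-05). Mthfd2, of mitochondrial folate metabolism, fell to 30.1, 27, 29.9 and 30.1 CPM, against 119, 241 and 256 CPM on day 1 (-2.69 ± 0.36), and Aars, the alanyl-tRNA synthetase, to 125, 114, 119 and 114 CPM, against 246, 563 and 556 CPM on day 1 (-1.84 ± 0.33). The day 5 libraries lay close together for all 3 genes, and library 1 of day 1 was the lowest of its day. Slc7a11, the cystine importer, had 8.90, 7.89, 6.52 and 6.23 CPM on day 5, against 17.4, 107 and 116 CPM on day 1 (-2.88 ± 0.60, adjusted p = 0.0011), and without library 1 of day 1 the difference was -3.75.

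Library 1 of day 1 stood apart from the other day 1 libraries in this set as a whole. The median of the serine and one-carbon list was -0.70 in it, relative to the day 1 mean, and 0.35 and 0.36 in libraries 3 and 4 of day 1, while the day 5 libraries stood between -1.33 and -1.01. Asns, asparagine synthetase, and Atf4 itself were chosen after their values were seen. Asns had 46.6, 58.8, 68.8 and 70.3 CPM on day 5, against 103, 295 and 304 CPM on day 1 (-1.78 ± 0.39, adjusted p = 0.0016). Atf4 had 99, 149, 114 and 118 CPM on day 5, against 134, 330.2 and 354 CPM on day 1 (-1.07 ± 0.31, adjusted p = 0.0097), so that library 1 of day 1 lay within the day 5 range, and the adjusted p was 0.056 without library 3 and 0.064 without library 4 of day 1. With the libraries numbered 1 and 2 alone, Asns gave -0.96 (adjusted p = 0.32), Aars -1.03 (0.24) and Slc7a11 -0.97 (0.45).

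The promoters of Asns and Aars are shown for the composite element through which ATF4 acts, TGATGNAA or its reverse complement, in capitals and searched on both strands. They are from RefSeq (GRCm38.p6), Asns at chr6:7693160-7693459 on the minus strand and Aars at chr8:111033592-111033891 on the plus strand, with 1 match in Asns and 2 in Aars.
Asns: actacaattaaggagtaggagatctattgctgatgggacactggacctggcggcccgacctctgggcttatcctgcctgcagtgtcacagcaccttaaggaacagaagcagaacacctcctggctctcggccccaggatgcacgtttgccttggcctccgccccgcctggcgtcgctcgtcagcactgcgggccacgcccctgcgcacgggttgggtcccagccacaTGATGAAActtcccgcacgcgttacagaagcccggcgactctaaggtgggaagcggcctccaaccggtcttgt
Aars: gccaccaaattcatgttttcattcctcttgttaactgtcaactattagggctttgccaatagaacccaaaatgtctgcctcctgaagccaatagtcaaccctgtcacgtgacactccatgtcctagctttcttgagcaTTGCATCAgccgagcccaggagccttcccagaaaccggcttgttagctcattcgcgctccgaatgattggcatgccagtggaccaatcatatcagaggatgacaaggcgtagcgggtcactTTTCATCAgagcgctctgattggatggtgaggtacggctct
The element was found in 6 of 24 promoters of the serine and one-carbon list (25%) and in 5 of 12 of the synthetase list (41.7%), against 2.17% of promoters of genes tested and 3.97% of all promoters. Since the first of these lists includes known ATF4 targets such as Trib3 and Ddit3, its share partly follows from the choice of members.

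The secretory pathway and its folding machinery were lower, with 21 of 34 genes down, 0 up and a median of -0.54. Hyou1, a chaperone of the endoplasmic reticulum, fell to 133, 223, 159 and 176 CPM on day 5, against 376, 398 and 375 CPM on day 1 (-1.17 ± 0.20, adjusted p = 0.00025), as did Dnajb11, a co-chaperone (-1.20 ± 0.11). The parts of the ribosome and the factors that assemble it went in opposite directions. Of 51 genes in the list of cytosolic ribosomal proteins 46 rose and 0 fell, with a median of 0.71. That list also holds Eef2, a translation elongation factor. Of 34 ribosome biogenesis factors 23 fell and 0 rose, with a median of -0.47. Rpl3 had 1093, 1638, 1400.5 and 1354 CPM on day 5, against 717, 741 and 767 CPM on day 1 (0.87 ± 0.15, adjusted p = 0.00027), and Rpl37 rose by 1.01 ± 0.21. Pno1, needed to mature the small subunit, fell to 36.7, 46.9, 41.6 and 37.7 CPM on day 5, against 103, 94 and 111 CPM on day 1 (-1.31 ± 0.15, adjusted p = 5.7e-06), while Npm1, nucleophosmin, gave 0.25 ± 0.20 (adjusted p = 0.31). The list median of the ribosomal proteins was lowest in library 1 of day 5, at 0.38, and highest in library 2, at 1.04. Without the libraries numbered 3, 21 genes of the ribosomal protein list were called higher and 13 biogenesis factors lower. Ribosomal protein genes have many processed copies in the genome, and reads shared with those copies may have been split or dropped.

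Energy and antioxidant genes changed less evenly. Of 21 genes of glycolysis and glucose transport 8 fell and 4 rose, against 24.8% lower and 25.2% higher among all genes tested. Pkm, pyruvate kinase, fell (-1.09 ± 0.22), and Pfkfb3, which drives glycolysis through fructose 2,6-bisphosphate, rose to 142, 158, 135 and 125 CPM on day 5, against 60.5, 61.7 and 66.5 CPM on day 1 (1.14 ± 0.11). Of 19 hypoxia targets 7 rose and 0 fell (1 fell without library 1 of day 5), with Ndrg1 at 203, 225, 280.3 and 311 CPM on day 5, against 42, 59.6 and 58.3 CPM on day 1 (2.23 ± 0.21). Of 33 nuclear-encoded subunits of oxidative phosphorylation 9 fell, a share near the 24.8% of all genes, and 1 rose (0 rose when any 1 library other than library 1 of day 5 was left out), with Cycs, cytochrome c, at -1.36 ± 0.18. Antioxidant genes under NRF2 fell for 12 of 23 and rose for 1, with Txnrd1, thioredoxin reductase, at 228, 219, 247 and 249.6 CPM on day 5, against 563, 489 and 515 CPM on day 1 (-1.14 ± 0.10).

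Lysosomal genes rose nearly as a block. Lysosomes digest proteins, glycosaminoglycans and lipids, and the factors TFEB, TFE3 and MITF turn on their genes together. Of 42 genes for lysosomal enzymes and membrane proteins 35 rose and 1 fell, with a median of 1.03, and the list median of single libraries was 0.96 to 1.07 on day 5. Gaa, acid alpha-glucosidase, which is deficient in Pompe disease, had 414, 465, 432 and 475 CPM on day 5, against 136, 116 and 108 CPM on day 1 (1.89 ± 0.22, adjusted p = 1.0e-05). Ctsl, cathepsin L, had 119.9, 179.9, 169.9 and 189.6 CPM, against 38.4, 32.5 and 34.4 CPM on day 1 (2.18 ± 0.18). All day 5 libraries lay above all day 1 libraries for both genes. Ctsd, cathepsin D, rose by 0.85 ± 0.19 (adjusted p = 0.0019). Ids, the iduronate sulfatase deficient in Hunter syndrome, was the member that fell, to 151, 234, 139.9 and 142 CPM on day 5, against 342, 314 and 342 CPM on day 1 (-1.02 ± 0.20, adjusted p = 0.00070). Of 24 MiT/TFE and autophagy genes 15 rose and 3 fell (1 fell without library 3 or 4 of day 1). Mitf itself rose by 1.36 ± 0.17 and Map1lc3b, which marks autophagosomes, to 118, 184, 169 and 166 CPM on day 5, against 42.3, 43.2 and 45.3 CPM on day 1 (1.83 ± 0.22). The subunits of the proton pump that acidifies lysosomes did not rise as the enzymes did. Of 16 tested 4 rose, a share near the 25.2% of all genes tested, and 3 fell, against 24.8%, with a median of 0.16. These counts were 1 and 1 without library 1 of day 1 and 2 and 1 without library 4 of day 1. Without library 1 of day 5, 1 fell.

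The promoters of Ctsd and Gaa are shown for the core of the CLEAR element bound by these factors, TCACGTG, in capitals and searched on both strands. They are from RefSeq (GRCm38.p6), Ctsd at chr7:142387778-142388077 on the minus strand and Gaa at chr11:119267713-119268012 on the plus strand. Ctsd has 3 matches, of which those on opposite strands of TCACGTGA overlap, and Gaa has 1.
Ctsd: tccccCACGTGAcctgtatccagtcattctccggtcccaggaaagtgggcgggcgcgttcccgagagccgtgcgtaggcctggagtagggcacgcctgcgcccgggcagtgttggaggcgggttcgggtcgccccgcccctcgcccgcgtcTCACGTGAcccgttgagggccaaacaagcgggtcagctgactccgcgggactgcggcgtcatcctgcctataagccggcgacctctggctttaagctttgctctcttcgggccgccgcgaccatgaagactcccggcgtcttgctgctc
Gaa: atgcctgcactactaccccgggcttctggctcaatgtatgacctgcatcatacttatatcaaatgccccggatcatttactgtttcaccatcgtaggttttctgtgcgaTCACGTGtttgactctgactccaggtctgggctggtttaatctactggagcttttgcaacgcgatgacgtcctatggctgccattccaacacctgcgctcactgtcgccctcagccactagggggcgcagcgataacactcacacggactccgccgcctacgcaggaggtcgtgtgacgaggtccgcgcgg
The core was found in 11 of 36 promoters of the lysosomal list (30.6%) and in 3 of 26 of the autophagy list (11.5%), against 6% of promoters of genes tested and 3.77% of all promoters.

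Genes of complement, of the interferon response and of antigen presentation rose. Of 11 complement and acute-phase genes tested, out of 27 in the list, 10 rose and 0 fell, with a median of 3.52. Of all genes tested, 25.2% were higher and 24.8% lower. The 27 members summed to 18.7 to 24.1 CPM in the day 1 libraries, and 16 of them did not pass the filter. The filter used the means of all 4 days, so members near 0 on day 1 passed only through later days. Such members could hardly be called lower, and the count and median partly follow from the filter. C4b (chr17:34728380-34743882), complement component 4, had 86.8, 193, 176 and 188 CPM on day 5, against 0, 0.0720 and 0.0619 CPM on day 1, which is 0 or 1 read per library (7.21 ± 0.51, adjusted p = 1.4e-07). C3, the central component, had 19.8, 44.3, 23.8 and 23 CPM on day 5, against 0.670, 0.576 and 0.371 CPM on day 1 (4.16 ± 0.63, adjusted p = 8.7e-05), and C1s1, a protease that starts the classical pathway, 47.1, 148, 56.4 and 63.1 CPM, against 4.33, 2.09 and 3.09 CPM on day 1 (4.14 ± 0.40). Library 2 was the highest of day 5 for all 3 genes and library 1 the lowest, and all day 5 libraries lay above all day 1 libraries. C4b and C1s1 each have a near-identical copy in the mouse genome, so their reads may be split between copies.

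Interferon-response genes rose for 21 of 31 and fell for 0, with a median of 1.05. Ifit3, a partner of RNA-binding IFIT proteins, had 5.07, 19.7, 8.84 and 10.5 CPM on day 5, against 0.853, 0.288 and 0.866 CPM on day 1 (2.73 ± 0.50, adjusted p = 0.00038), and Gbp7, a GTPase of cell-autonomous defence, 5.46, 12.3, 5.85 and 5.03 CPM, against 0.792, 0.791 and 0.680 CPM on day 1 (2.14 ± 0.30). Both stayed low in CPM, and library 2 was the highest of day 5. Over the list, the median was 2.26 in library 2 of day 5 and 0.77 to 0.86 in the other day 5 libraries, and 19 members were called higher without library 2. Genes of antigen presentation on MHC class I rose for 9 of 17 and fell for 0. H2-T23, a non-classical MHC gene, rose to 11.1, 17.2, 13 and 17.1 CPM on day 5, against 2.99, 1.80 and 2.04 CPM on day 1 (2.25 ± 0.29), and Tap2, the peptide transporter, by 1.27 ± 0.29, whereas the classical H2-K1 gave 0.05 ± 0.28 (adjusted p = 0.89) and -0.14 with the library number as a block. MHC genes resemble each other closely, so single genes of the family are uncertain. Macrophage markers were at or near 0 on both days, as given above.

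The promoters of Ifit3 and Gbp7 are shown for the interferon-stimulated response element, searched on both strands as TTTC, any 2 bases and TTTC, and given in capitals. They are from RefSeq (GRCm38.p6), Ifit3 at chr19:34583279-34583578 on the plus strand with 2 matches and Gbp7 at chr3:142530086-142530385 on the plus strand with 1.
Ifit3: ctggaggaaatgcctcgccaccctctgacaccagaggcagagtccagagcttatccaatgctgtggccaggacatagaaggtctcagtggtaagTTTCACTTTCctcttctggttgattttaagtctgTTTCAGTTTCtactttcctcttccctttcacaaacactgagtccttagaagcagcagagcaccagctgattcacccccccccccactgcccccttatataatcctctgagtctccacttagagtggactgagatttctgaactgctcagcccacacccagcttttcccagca
Gbp7: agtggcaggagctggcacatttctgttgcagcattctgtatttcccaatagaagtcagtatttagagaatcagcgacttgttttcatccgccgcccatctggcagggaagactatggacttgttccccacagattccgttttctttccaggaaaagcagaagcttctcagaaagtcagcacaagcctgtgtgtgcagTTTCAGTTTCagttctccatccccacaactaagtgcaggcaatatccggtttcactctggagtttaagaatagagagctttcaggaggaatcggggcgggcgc
The element was found in 14 of 27 promoters of the interferon list (51.9%) and in 0 of 10 of the complement list, against 2.85% of promoters of genes tested and 3.44% of all promoters.

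Hormone-responsive and daily rhythm genes were more often higher than lower. Of 17 genes in the list of glucocorticoid targets 11 rose and 1 fell (2 fell without library 2 of day 5), with a median of 1.32. The list also holds the receptor gene Nr3c1 and Hsd11b1, an enzyme of glucocorticoid metabolism, both among its lowest members. Klf15, a transcription factor of amino acid and lipid use, had 31.6, 65.5, 57.8 and 60.6 CPM on day 5, against 5.0, 5.25 and 4.70 CPM on day 1 (3.15 ± 0.29, adjusted p = 1.1e-06), and Mt1, metallothionein-1, 28.7, 22.2, 34.3 and 32.5 CPM, against 1.34, 1.65 and 2.10 CPM on day 1 (3.49 ± 0.40). Fkbp5, a co-chaperone of the glucocorticoid receptor and one of its targets, was the member that fell, to 24.4, 23.3, 21.3 and 24.3 CPM on day 5, against 48.2, 48.9 and 44.3 CPM on day 1 (-0.99 ± 0.19, adjusted p = 0.00056). Sgk1, another target, was not called (-0.50 ± 0.27, adjusted p = 0.14 by limma). Of 17 clock genes 9 rose and 2 fell, against 25.2% higher and 24.8% lower among all genes tested. Dbp, an output of the clock, had 19.6, 21.5, 23.5 and 25.9 CPM on day 5, against 3.47, 2.59 and 2.23 CPM on day 1 (2.66 ± 0.20), and Clock itself fell to 99.5, 65.7, 89.3 and 83.9 CPM, against 173, 164 and 166 CPM on day 1 (-0.99 ± 0.15). The hour of harvest is not given in the sources used here.

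Imprinted and fetal growth genes are known to decline with age in many growing tissues. Here 6 of 8 fetal growth regulators fell and 2 rose, against 24.8% lower and 25.2% higher among all genes tested. Of 16 imprinted growth genes 2 fell and 5 rose, so the share that rose was near that of all genes. Peg10 is in both lists, and the highest of the imprinted list is Dcn, given above among the proteoglycans. Peg10, a paternally expressed gene of growth and placenta, fell to 695, 349.6, 369 and 324 CPM on day 5, against 2058, 2043 and 2033 CPM on day 1 (-2.31 ± 0.25, adjusted p = 4.6e-06), and Mest to 257, 239, 229.8 and 228 CPM, against 572, 384 and 406 CPM on day 1 (-0.90 ± 0.21). Peg3, also paternally expressed, had 9.63, 3.69, 3.41 and 4.37 CPM on day 5 and 0 or 1 read in each day 1 library (2.49 ± 0.44). Library 1 was the highest of day 5 for Peg10 and Peg3. In cell adhesion, 8 of 24 integrins, syndecans and glypicans rose and 4 fell, against 25.2% higher and 24.8% lower among all genes tested, with the laminin-binding Itga7 at 39.9, 30.4, 71 and 85.6 CPM on day 5, against 2.74, 1.22 and 1.299 CPM on day 1 (4.31 ± 0.35), and the collagen-binding Itga11 at 59.1, 53.6, 46.4 and 45.9 CPM, against 239, 278 and 235 CPM on day 1 (-2.27 ± 0.20). Of 13 cadherins and adhesion molecules 6 rose and 4 fell (3 rose without library 2 of day 5 or without library 3 or 4 of day 1), and Cdh2, N-cadherin, which condenses mesenchyme before cartilage forms, fell (-1.26 ± 0.31).

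**Figure D4:**
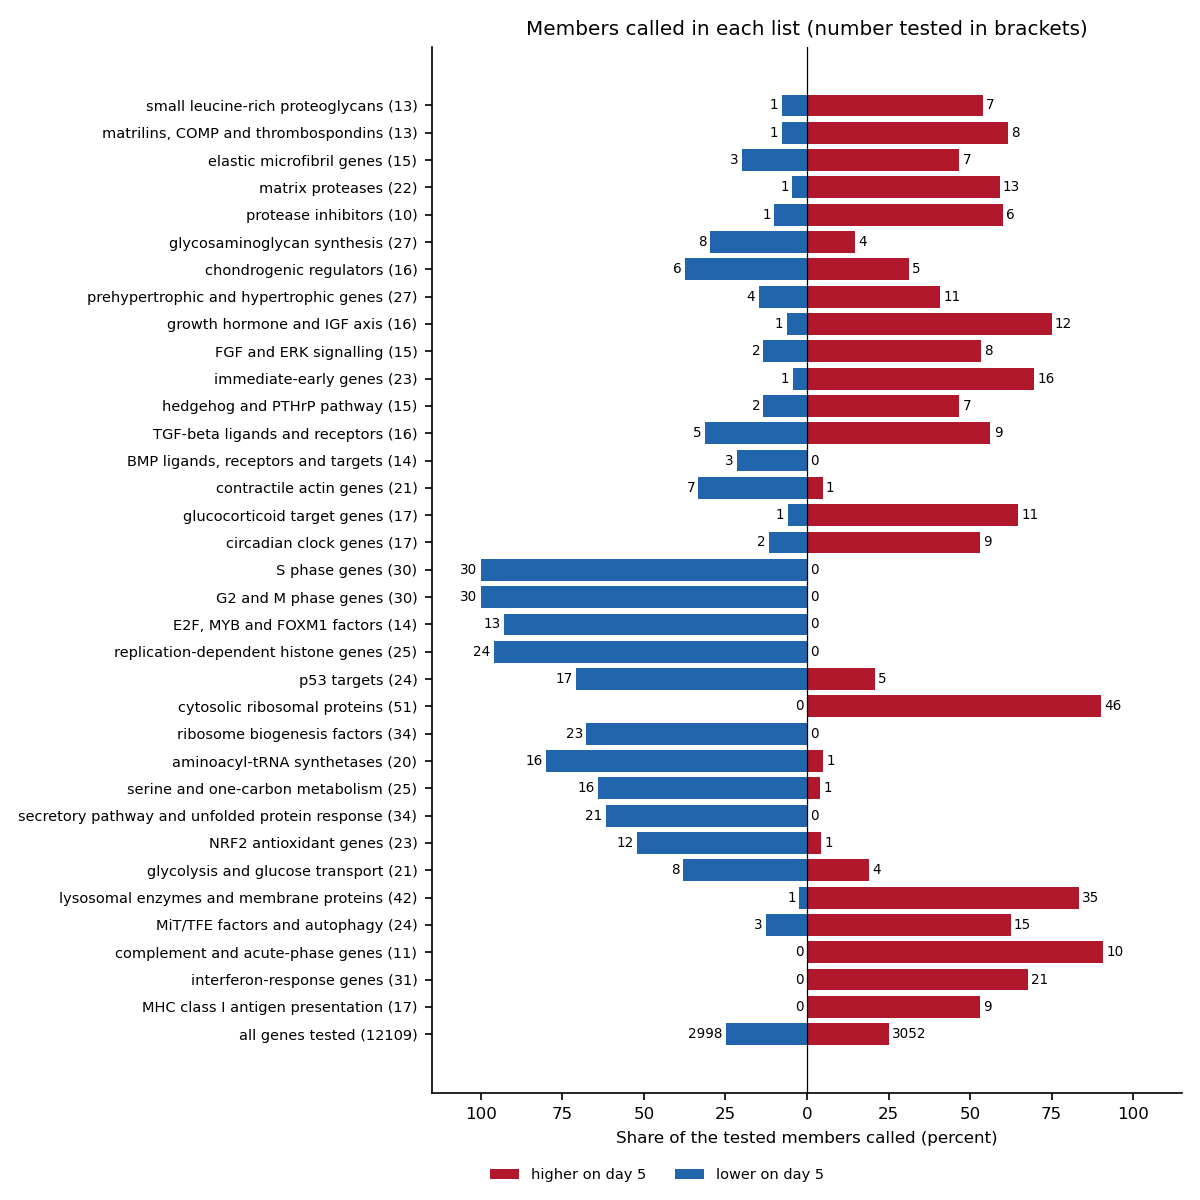
Share of the tested members of 34 gene lists called higher (red bars to the right) and lower (blue bars to the left) on day 5 than on day 1, with the counts at the bar ends, the number tested in brackets and all genes tested in the bottom row. S phase and G2 and M phase genes reach 100% on the lower side, and ribosomal, lysosomal and complement genes reach farthest on the higher side, against 25.2% higher and 24.8% lower among all genes tested.

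Across libraries, most list medians of day 5 lay close together, with exceptions in which library 1 or 2 of day 5 or library 1 of day 1 differed. The complement list stood between 3.29 and 4.15 in the day 5 libraries, the lysosomal list between 0.96 and 1.07 and the p53 list between -1.12 and -0.79. The glucocorticoid list was lower in library 1 of day 5, at 0.47, and reached 1.42 in library 4.

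**Figure D5:**
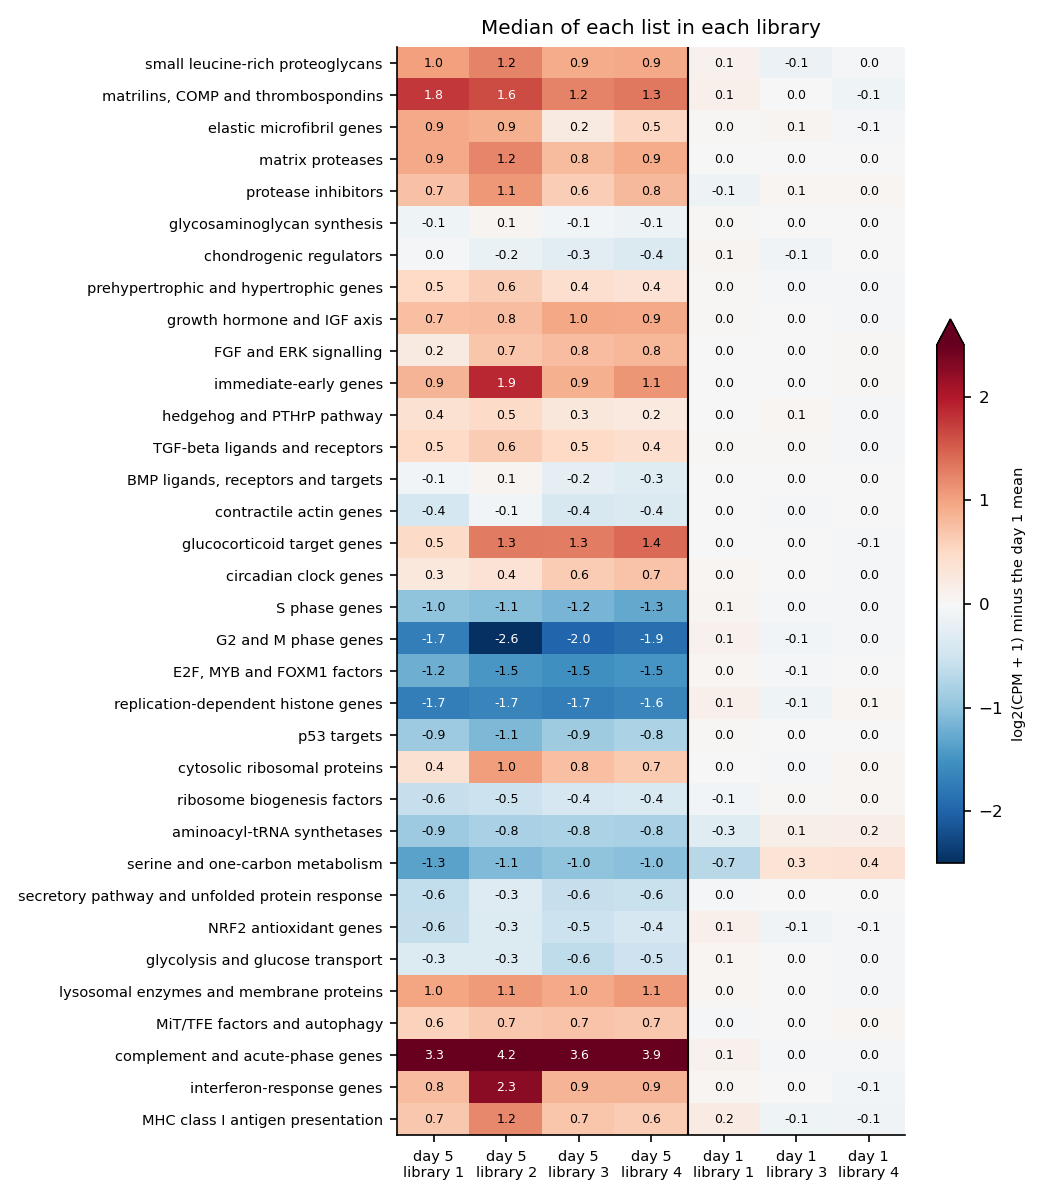
Median over the members of each list of log2(CPM + 1) minus the day 1 mean, for the 4 day 5 libraries on the left and the 3 day 1 libraries on the right of the black line; red is above and blue below the day 1 mean. Library 2 of day 5 is the highest of its day for interferon-response and immediate-early genes (2.26 and 1.89) and the lowest for G2 and M phase genes (-2.59), and library 1 of day 1 is the lowest of its day for serine and one-carbon genes (-0.70).

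How much of this distance was covered after day 3 was read from the fit of day 5 against day 3, which shares the day 5 libraries and so is not independent of the comparison with day 1. In it 618 genes were higher (5.1%) and 488 lower (4.03%) on day 5. Of the complement and acute-phase genes 7 of 11 were also higher on day 5 than on day 3, of immediate-early genes 10 of 23, of growth hormone axis genes 6 of 16, of lysosomal genes 5 of 42 and of the ribosomal protein list 0 of 51. On the lower side were 20 of 30 G2 and M phase genes, 14 of 30 S phase genes and 18 of 25 replication-dependent histone genes, but 0 of 20 aminoacyl-tRNA synthetases and 1 of 34 genes of the secretory pathway. C4b averaged 0.0446, 13.4, 161 and 136 CPM on days 1, 3, 5 and 10, Gpnmb 1.11, 11.3, 153 and 322 CPM, and Plk1 142, 51.7, 28.7 and 38 CPM. Over the same days Col10a1 averaged 164, 7.17, 5.17 and 31.6 CPM and Rpl3 742, 1182, 1371 and 1056 CPM, so that both stood on day 3 closer to their day 5 than to their day 1 level.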

How the data were processed

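The study measured RNA of a mouse chondrocyte line on days 1, 3, 5 and 10 of culture. The authors deposited 1 table of 24499 genes in 15 libraries. Its values are the authors' signal, CPM (read counts scaled to library size), adjusted between libraries by TMM: divided by what 1 read was worth, 100% of values were whole numbers within 0.001, and the column totals matched TMM. Per the submitters' processing notes, STAR, featureCounts and edgeR were used with GRCm38; the sources used here give no versions, annotation or strand setting. Where exons of genes overlap, reads cannot be assigned with certainty. More than 10% of exon bases overlap another gene for Epyc, Fbn1, Irs1, Fgfr3, Spry1, Fosl1, Ctsl, C1s1, Tap2, Dbp and Mest (opposite strand) and for Hyal1, Spp1, Aars, Pkm, Ctsd and Gbp7 (same strand).

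Values were taken as log2(CPM + 1), and 12109 genes with a mean of at least 1 CPM over the 4 day means were tested with limma 3.58.1 in R 4.3.3 (trended prior, 1 coefficient per day over all 15 libraries, contrast day 5 minus day 1, two-sided, Benjamini-Hochberg at 0.05). edgeR 4.0.16 and DESeq2 1.42.0 on the recovered reads were alternatives. On simulated reads of 12109 genes with 200 changed, the test found 67% of 2-fold and 94% of 4-fold differences, and 5.29% of its calls were unchanged genes. The simulated libraries were drawn independently and few genes changed, whereas 50.0% of the genes tested were called in the data. These shares therefore need not hold for the data. The main fit did not pair libraries by number, since no label says what a number stands for. Deviations from the day means correlated at 0.338, 0.258 and 0.217 between same-numbered libraries of days 5 and 1, over the 0.1 set for pairing. A fit with the number as a block was therefore run beside the main one. Unlike-numbered libraries correlated at -0.397 to 0.378, the highest being library 4 of day 5 with library 3 of day 1. These values do not settle whether the numbers pair libraries. Libraries had 12492537 to 18841621 reads, and a count of 0 allows up to 3 reads; such limits cover counting error only.

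Named genes were the 15 highest and 15 lowest differences among called genes with at least 5 CPM on a day, leaving out clone, small RNA and predicted genes, the first 4 members and the 4 highest and 4 lowest of each gene list, and the 10 highest by CPM on each day. Members and lists were chosen with earlier results of these data known. The checks of single genes below cover 159 genes and leave out Scx and Sox5. Some items are not reported here. Lists are described by counts and medians, with no set test. Promoters are RefSeq sequences matched by symbol. For 23661 genes the symbol was in GENCODE M21, and for 838 it was not. Days 3 and 10 enter the filter, the shared estimate of spread and the day means, and day 3 also enters the comparison of day 5 with day 3.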

Additional observations from a re-analysis of the deposited data

Results flagged for a closer look

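In 27 of the 159 genes named, 1 of the 4 day 5 libraries lay so far from the other 3 that its gap to the nearest, divided by the whole range, was above Dixon's 95% critical value for 4 values. Chance flags about 1 in 20 groups, and 963 of all 12109 genes tested (7.95%) met the same limit, 225 through library 1, 637 through library 2, 36 through library 3 and 65 through library 4.

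Library 2 of day 5 was the 1 that stood apart in 15 of them. It was the highest for Fos (149 CPM, the others 10.9 to 15.7), Dmp1 (27.2 CPM, 5.55 to 9.01), Lrrc32 (35.7 CPM, at most 11.9 in the others), Fbln2 (58.5 CPM, 22.4 to 26.2) and Rspo2 (24.9 CPM, 11 to 12.6). Immune genes stood out the same way, C1s1 at 148 CPM (47.1 to 63.1), C3 at 44.3 CPM (19.8 to 23.8) and Gbp7 at 12.3 CPM (5.03 to 5.85), as did Ids at 234 CPM (139.9 to 151), Tgfbr3 at 167 CPM (117 to 124) and Plat at 34.4 CPM (21.5 to 22.7). The same library was the lowest for Hyal1 (8.24 CPM, 17 to 17.6), Plod2 (199 CPM, 303 to 324), Ezh2 (37.9 CPM, 54.1 to 56.1) and Mthfd2 (27 CPM, 29.9 to 30.1). Of these 15 genes, all kept their call and direction without library 2.

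Library 1 of day 5 stood apart in the other 12. Cartilage genes were highest there, Col9a1 at 954 CPM (354 to 395 in the others), Col11a2 at 318 CPM (90.4 to 125), Sox6 at 170 CPM (73.3 to 86.8) and Slc26a2 at 30.5 CPM (15.9 to 16.8). Imprinted genes followed, with Peg10 at 695 CPM (324 to 369) and Peg3 at 9.63 CPM (3.41 to 4.37). The others were Sfrp4 at 32.7 CPM (17.4 to 19.8), Igfals at 15.4 CPM (6.89 to 7.72), Cyp26b1 at 8.33 CPM (1.08 to 1.96), Cdon at 320 CPM (247 to 259) and Mcm5 at 87.9 CPM (64.1 to 65.6). C4b was lowest there, at 86.8 CPM (176 to 193).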

How the results depend on the processing

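In 24 alternatives, 95 of the 152 called genes named kept direction and call in every one, 145 kept them in all but the fit of libraries 1 and 2 alone (2 libraries of day 5 and 1 of day 1), and 0 changed direction. That fit called 776 genes higher, 599 lower and 254 list members, against 3052, 2998 and 747. The genes named include the largest differences, which favours the keeping of calls. Of all genes called higher and lower, 64.7% and 61.6% were also called without the libraries numbered 3. Without the libraries numbered 2 these shares were 96.3% and 95.9%. Leaving out the libraries of 1 number, or 1 library, gave 1979 to 3392 genes higher, 1846 to 3264 lower, 1250 to 1322 higher by 2-fold, 758 to 805 lower by 2-fold and 534 to 810 list members, the lowest counts of calls without the libraries numbered 3. With a pseudocount of 5 CPM, 713 genes were higher by 2-fold, against 1268; a larger pseudocount shrinks differences of low genes by construction. The replicate block called 3540 genes higher and 3436 lower, among them 3019 and 2959 of the main calls, and among the genes named it changed the call of Malat1 and Hist1h1c only. edgeR called 3206 and 2902 genes, DESeq2 3343 and 3093, plain CPM 2854 and 3184. H2-K1, not called at 0.05, turned to -0.14 with the block, to -0.11 with libraries 3 and 4 alone, and to between -0.18 and 0.23 when libraries were left out. With libraries 3 and 4 averaged, Acan, Sox9, Id1, Cdkn1a and Atf4 were no longer called, and without a filter Thbs1 was not; the cause was not tested. The larger count of calls of a list moved by over 1.5 times for 57 of 66 lists with libraries 1 and 2 alone, 23 without the libraries numbered 3, 15 without those numbered 1, 9 without those numbered 4, and 7 or fewer in each other alternative. Without those numbered 3, 11 p53 targets and 10 serine and one-carbon genes were called lower, and without those numbered 4, 9 immediate-early genes higher. Genes near 1 CPM rest on few reads, since 1 read was worth 0.0563 to 0.0719 CPM.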

Other observations

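Of 32 primary cilium genes 14 rose and 1 fell, with a median log2 difference of 0.22, and the 1 that fell was not called without any 1 of the day 1 libraries or library 4 of day 5. The cilium is the cell's antenna for hedgehog signals. Of 11 retinoic acid genes 6 rose and 3 fell (1 fell without library 3 or 4 of day 1 or library 4 of day 5). Cholesterol synthesis genes fell for 6 of 21 and rose for 1 (2 fell and 2 rose without library 1 of day 1, and 2 rose without library 1 of day 5), so the share that fell was near the 24.8% of all genes tested. In the list of fatty acid synthesis and adipogenic genes 6 of 21 rose, a share near the 25.2% of all genes tested, and 4 fell (2 fell without library 1 of day 1 or library 3 or 4 of day 5). Cebpa, a factor of fat and liver cells, had 32, 48.5, 26 and 29.4 CPM on day 5, against 7.98, 6.62 and 7.05 CPM on day 1 (2.05 ± 0.27, adjusted p = 2.2e-05 by limma). Of 11 Hox genes 3 rose, a share near the 25.2% of all genes tested, and 1 fell (2 fell without library 2 of day 5). Adipocyte markers summed to 36.3 to 69.7 CPM on day 5, against 47.7 to 52.5 CPM on day 1, with Cidec and Lep at 0.

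Malat1, a nuclear noncoding RNA, had 14035, 3649.6, 26518 and 25344 CPM on day 5 and 5671, 8302 and 6943 CPM on day 1 (0.98 ± 0.70, adjusted p = 0.26 by limma). Library 2 of day 5 was below all day 1 libraries and the other day 5 libraries were above them, and without library 2 the difference was 1.62 with an adjusted p of 0.040; with the library number as a block it was 1.49 with an adjusted p of 0.0023.

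Messages encoded in the mitochondrial genome were spread widely on day 5. Of 13 such protein genes 7 were above 0 in every library, 4 (COX2, COX3, ATP6 and ATP8) are listed at 0 in all day 5 and day 1 libraries, and ND3 and ND4L were near 0. Summed over the 13 genes, the level was 21940.0, 7487, 14860.0 and 13040.0 CPM in the day 5 libraries, against 8386, 8432 and 8089 CPM in the day 1 libraries. Library 2 of day 5 was below all day 1 libraries in this sum, and the other 3 were above them. COX1 had 6251, 2446, 4860 and 4191 CPM on day 5, against 1961, 2591 and 2308 CPM on day 1 (0.89, adjusted p = 0.25 by limma).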
